A study of Bos taurus with 6 samples.

Results

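Of 39647 windows of 1000 bp that could be measured on the cattle autosomes, 346 read very differently between animals of the same group in both groups of the study. These member windows were chosen by a rule on measured values. The autosomes 1 to 29 of the build UMD3.1 were cut into a grid of 1000 bp from base 1, and the methylation level of a window in a library was its methylated read calls over all its read calls, as a percent. A window counted as measured in a library with at least 3 covered cytosines and 50 calls there. It became a member where at least 2 libraries of each group measured it and where the highest library lay 50 or more percentage points above the lowest within the Creole libraries and also within the Spanish libraries. Windows with 1000 or more calls in all 6 libraries were dropped. At least 1 cytosine was covered in 409025 windows in all.

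The data are reduced representation bisulfite sequencing of blood DNA from 6 cattle, in which MspI cuts the genome at CCGG sites and bisulfite turns unmethylated cytosines into bases read as thymine. Creole 1 is of the Sanmartinero breed, and Creole 2 and 3 are Costeno con Cuernos. Spanish 1 is a Retinta, Spanish 2 an Asturiana de los Valles and Spanish 3 of the Lidia breed. The labels call all of them adult males, give no age or treatment, and set 1 library for each animal, so a range within a group is a range between animals, in part of different breeds. Creole and Spanish DNA were taken out of blood with different kits and the file names carry different lane marks, so kit, lane mark and group cannot be told apart. A range within a group is taken over libraries of 1 kit and 1 lane mark. Whether kit or lane bears on the spread among those libraries was not tested.

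In mammals, DNA methylation sits mostly on the cytosine of CpG pairs. When DNA is replicated, it is copied from the old strand of a CpG to the new strand. Most CpGs of blood cells are either methylated or unmethylated on nearly every molecule, with CpG islands at promoters mostly unmethylated. Levels in between are known from imprinted genes, where 1 parental copy is methylated, from stretches where a nearby sequence variant sets the state of an allele, from metastable epialleles, whose state differs between animals but is shared by the tissues of 1 animal, and from mixtures of cell types. Blood DNA comes from several kinds of white cell, and a changed share of a cell type and a changed level within it cannot be told apart here.

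The libraries held 38633007 to 80245850 calls on the autosomes, and 1 library stood apart in breadth: a member window had a median of 26 covered cytosines in Creole 1 against 8 to 13.5 in the other 5 libraries. Calls on neighbouring cytosines of a window can come from the same reads, which the deposited counts do not identify. In 827 of 1755 member values (47.1%), at most 2 different call numbers occurred over all cytosines of the window in that library, and the deepest cytosine of a member had a median of 40 calls. Amplification took 20 PCR cycles and the labels name no molecular identifiers, so the reads are not independent molecules and the intervals given here cover counting error only. Intervals and the limits of a level of 0 take the calls of the deepest cytosine of the window as the number of reads, the fewest that the window can hold. On that basis the 95% Wilson interval of a member value had a median width of 21.5 points and a widest of 69.9. The X chromosome did not read alike in all 6 animals labelled as males. Its share of the calls on chromosomes was 5.08%, 3.03% and 3.26% for Creole 1, 2 and 3, and 2.98%, 2.45% and 2.29% for Spanish 1, 2 and 3. In X windows with at least 40 cytosines covered in any library, 71.3% read between 20% and 80% in Creole 1, against 32.8% and 34.0% for Creole 2 and 3. For Spanish 1 this share was 41.9%, against 21.1% and 23.5% for Spanish 2 and 3. The same kind of autosomal window lay in that middle band in 33.8% of cases in Creole 1 and in 22.3% to 31.6% in the others. The part of this in the member windows was not tested. Without Creole 1 and Spanish 1 together, 51 of 10341 windows (0.493%) met the rule, with 2 libraries left in each group.

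The 346 windows made up 0.873% of the windows tested by the rule. Their smaller range of the 2 groups had a median of 58.2 points (quartiles 53.2 and 64.5) and reached 100 points. The median range was 63.4 points within the Creole and 66.0 within the Spanish libraries. These values chose the windows and are given as a description. At the threshold, 4 members lay at exactly 50 points, on chromosome 3 at 86735001, chromosome 7 at 8949001 and 21145001, and chromosome 9 at 104537001. The nearest windows outside had 49.96 points (chromosome 13, 58034001), 49.88 (chromosome 5, 116368001), 49.86 (chromosome 18, 63095001) and 49.80 (chromosome 16, 52613001). The members do not form a group set off from the rest: 776 windows had 40 or more points in both groups and 148 had 60 or more. With 1 library left out, 115, 118 and 187 windows met the rule without Creole 1, 2 and 3, and 165, 136 and 156 without Spanish 1, 2 and 3.

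A wide range in 1 group went with a wide range in the other more often than in the rest of the windows. Among the 2130 windows that were wide within Creole (5.37% of all), 16.2% were also wide within Spanish, against 4.23% of the other windows. Read from the Spanish side, 17.9% of the 1933 windows wide within Spanish (4.88%) were wide within Creole, against 4.73% of the others. The median Spanish range rose with the Creole range, from 5.48 points in windows with a Creole range under 10 points to 18.5 points in windows with 50 or more. A window near 0% or 100% in all libraries cannot vary widely, so the shares were also taken at middle levels. Among the 15356 windows with a Spanish mean between 20% and 80%, the shares were 27.9% and 11.0%. Among windows whose mean over all measured libraries lay in that band they were 18.8% and 9.25%. With only cytosines that every measured library of the window covered, and windows of any level, the shares were 14.3% and 3.64%. These stand beside the 16.2% and 4.23% above, not beside the shares at middle levels. No test was made of these shares, since the windows were chosen by the same values.

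**Figure D1:**
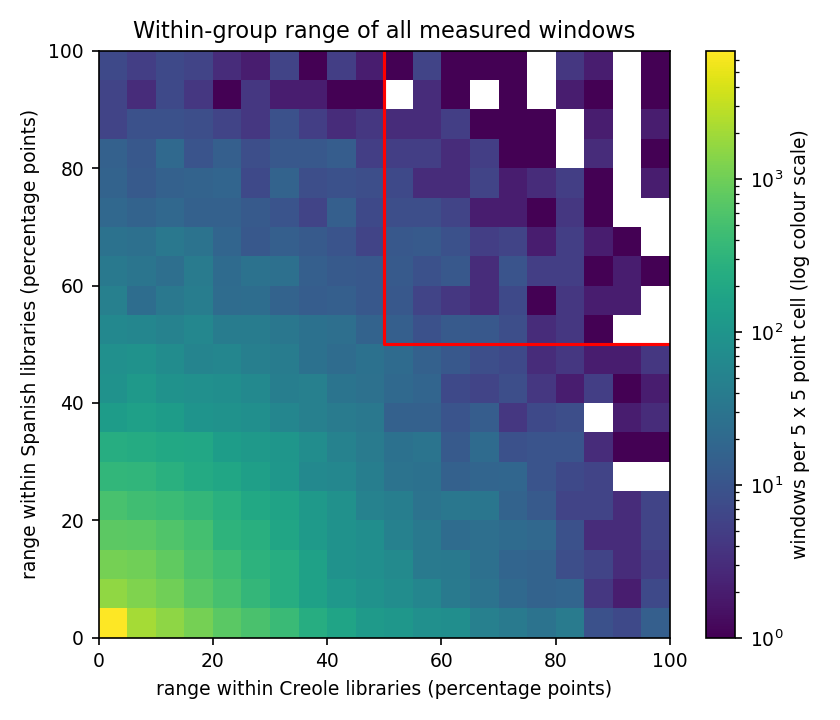
The number of measured windows by range within the Creole libraries (horizontal axis, percentage points) and within the Spanish libraries (vertical axis, percentage points), in cells of 5 by 5 points on a log colour scale, white cells holding none. The red lines enclose the 346 windows with 50 or more points in both groups, which continue the surrounding cloud without a gap.

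The member windows were read by different numbers of libraries: 116 by all 6 (33.5%), 139 by 5 (40.2%) and 91 by 4 (26.3%). Over all measured windows, 17.4% were measured in 6 libraries, and each further library can only widen a range. The libraries took unequal places in the ranges. The counts that follow are out of unlike numbers of measured members. Creole 1 was the highest of its group in 145 of its 345 members and the lowest in 102. It lay between the others in 98 of the 170 members that all 3 Creole libraries measured. Creole 2 was the lowest in 156 of its 285 members and the highest in 97, and Creole 3 the highest in 104 of its 232 and the lowest in 88. The Spanish libraries were more even, with 121, 119 and 106 members as the highest and 100, 124 and 122 as the lowest for Spanish 1, 2 and 3. These measured 277, 328 and 288 members.

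Creole 1, and less so Spanish 2, read more of the members in the middle of the scale than the other libraries did. Between 20% and 80% lay 71.3% of the 345 members measured in Creole 1, against 48.2% of all windows. Creole 2 read 29.1% of its 285 members in that band and Creole 3 34.5% of 232, both under their shares over all windows, 37.1% and 39.2%. In the Spanish libraries the share was 40.1% of 277 members in Spanish 1, 51.2% of 328 in Spanish 2 and 36.5% of 288 in Spanish 3, against 34.1% to 35.0% over all windows. All 346 members had a mean over their measured libraries between 20% and 80%, as had 17570 of the 39647 measured windows. The shares over all windows thus come in part from windows of unlike mean level, and the choice of members bears on these differences. The median level of the members was 55.2%, 24.5% and 49.3% for Creole 1, 2 and 3, and 56.3%, 44.7% and 44.4% for Spanish 1, 2 and 3. A level of exactly 0 occurred in 1 member in Creole 1 and in 28 to 54 members in the other libraries. In all, 164 members read 0 in at least 1 library. The 213 values of 0 had a median of 39 calls on their deepest cytosine and at the least 4, so the level that they allow had a median of 7.69% and reached 75%.

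**Figure D2:**
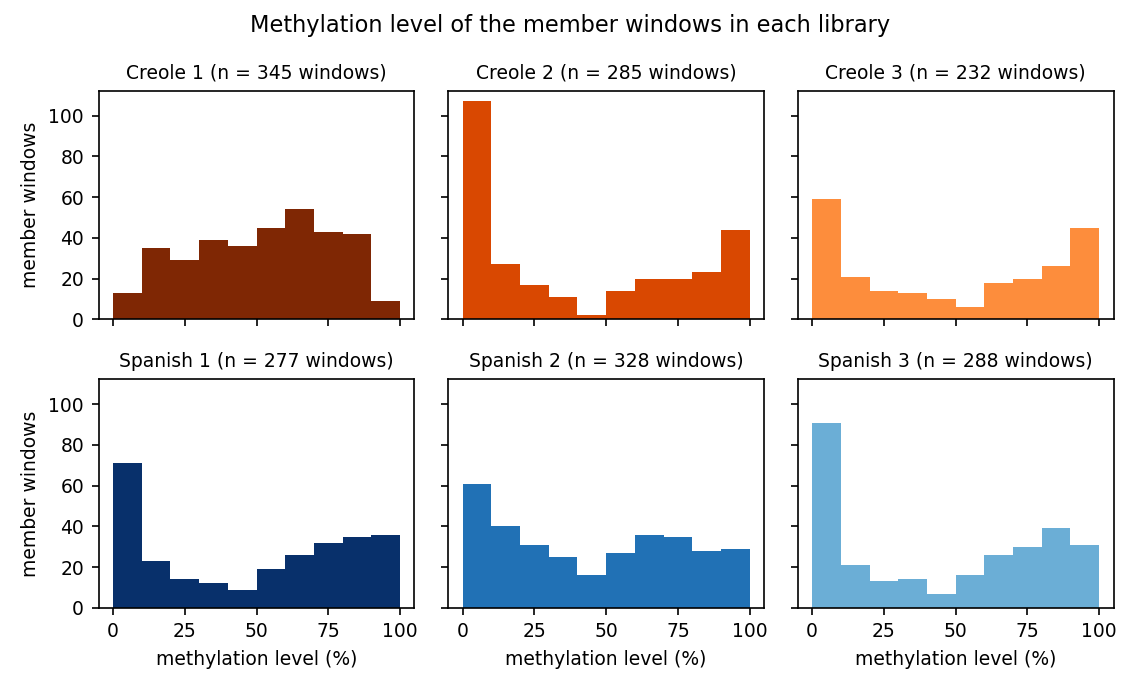
Member windows (vertical axis, number) by methylation level (horizontal axis, percent, bins of 10 points) in each of the 6 libraries, with the number of members measured in each title. Creole 1 fills the middle of the scale, with 246 of 345 windows between 20% and 80%, while Creole 2 piles up at the low end, with 135 of 285 windows at 20% or less.

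Pairs of libraries within a group lay far apart in the members, which the rule fixes. Creole 2 and Creole 3, both Costeno con Cuernos, were measured together in 171 members and lay 50 or more points apart in 115 of them (67.3%), with a median absolute difference of 59.8 points. Creole 1 and Creole 2 lay that far apart in 65.8% of 284 members, Creole 1 and Creole 3 in 51.1% of 231, and the 3 Spanish pairs in 60.2% to 61.6%. The 9 pairs across the groups were that far apart in 24.8% (Creole 1 with Spanish 2) to 45.9% of members (Creole 2 with Spanish 1). The rule bears on these pairs too. With ranges of 50 or more points in both groups, at least 1 pair across the groups must lie 50 or more points apart in each member. Over all measured windows, Creole 2 and Creole 3 were 50 or more points apart in 5.99% of 13612, the highest share of the 15 pairs of libraries. The lowest was 2.09%, of Creole 1 with Spanish 2. The pairs share libraries and differ in how many cytosines each library covers, so these shares are a description, and nothing is read from them about breeds.

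The window on chromosome 22 at 59651001 to 59652000 was among the widest of those measured in all 6 libraries. Creole 1 read 83.1% on 969 calls, with a 95% Wilson interval of 74.1 to 89.4. Creole 2 read 9.79% on 531 calls (interval 4.04 to 21.9), and Creole 3 0.714% on 1400 calls (interval 0.136 to 3.66). Spanish 1, 2 and 3 read 88.9%, 12.4% and 84.7%, on 216, 307 and 3416 calls. So 1 Creole and 2 Spanish animals were high and the rest low, and the group means of 31.2% ± 45.2 (SD, n = 3) and 62.0% ± 43.0 (SD, n = 3) stand for no animal. Over the 9 cytosines that Creole 1 and Creole 3 both covered, the difference was 84.5 points, with 8 of them 50 or more points apart. Over the 9 cytosines shared by Spanish 1 and Spanish 2 it was 77.8 points.

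The window on chromosome 3 at 121263001 to 121264000 had the largest smaller range, 85.7 points, of the members that kept 50 points on shared cytosines. Creole 1 read 79.8%, Creole 2 1.17% and Creole 3 96.6%, on 247, 1024 and 89 calls. Spanish 1 read 100% on 1042 calls, while Spanish 2 and Spanish 3 both read 14.3%, on 294 and 428 calls. Here the low Creole animal stood alone, as did the high Spanish animal. The 14 cytosines shared by Creole 3 and Creole 2 differed by 95.9 points in sum.

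On chromosome 15, the window at 82033001 to 82034000 read 60.5% in Creole 1 and 0 in Creole 2 and Creole 3, where 229 and 53 calls on the deepest cytosine allow up to 1.31% and 5.66%. Spanish 1 read 86.8%, Spanish 2 16.1% and Spanish 3 84.6%. Its neighbour at 82032001 was a member too, with 55.2% in Creole 1, 0 of 66 calls in Creole 2, 0 of 116 calls in Spanish 1 and 60.6% in Spanish 2. The order of the Spanish animals was thus opposite in the 2 windows: Spanish 1 was high in the first and at 0 in the second. The 3 cytosines that Spanish 2 and Spanish 1 shared in the second window did not differ, at 0.0 points.

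On chromosome 22, the neighbouring members at 60434001 and 60435001 also ranked the animals differently. In the first, Creole 1, 2 and 3 read 62.1%, 0 and 0.136%, and Spanish 1, 2 and 3 read 0, 0 and 60.2%, where the zeros rest on 19 to 61 calls on the deepest cytosine and allow up to 15.8%. In the second, Creole 1, 2 and 3 read 33.1%, 92.8% and 1.27%, and Spanish 1, 2 and 3 read 93.7%, 33.3% and 50%. Creole 2 and Spanish 1 were at 0 in the first and highest of their groups in the second. On the 17 cytosines shared by Creole 1 and Creole 2 the first window differed by 58.3 points, while in the second the 14 cytosines shared by Creole 2 and Creole 3 differed by -0.0957 points.

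Neighbouring members also lay on chromosome 9 at 97663001 and 97664001. In the first, Creole 1 read 100% on 97 calls and Creole 3 0 of 350 calls, with Creole 2 unmeasured, and Spanish 1, 2 and 3 read 84.6%, 0.962% and 92.9%. Creole 1 and Creole 3 shared none of the 21 cytosines that they covered in it, and Spanish 3 and Spanish 2 none of 42. In the second window Creole 2 was the highest of its group with 97.7% against 44.3% in Creole 1, but on the 3 cytosines they shared Creole 2 lay 54.4 points below Creole 1 (a difference of -54.4). Spanish 3 and Spanish 2 shared 14 cytosines of this second window and differed by 50.4 points over them.

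The other 3 places with neighbouring members, named after their values were seen, held no window that kept 50 points on shared cytosines in both groups. On chromosome 21, at 65857001 and 65858001, both windows had the same extremes: Creole 3 read 100% and 85.7% against 44.1% and 26.8% in Creole 1, and Spanish 1 read 96.0% and 100% against 25.9% and 6.17% in Spanish 3. On shared cytosines the second of them differed by 79.4 points within Creole and 44.4 within Spanish, and the first by 42.9 and 9.45. On chromosome 18, at 51277001 and 51278001, Creole 1 was high (80.1% and 71.2%) and Creole 2 low (0 and 11.5%) in both windows, while Spanish 3 read 85.7% in the first and 1.39% in the second. On chromosome 15, at 78429001 and 78430001, Creole 3 read 73.6% in the first and 0 in the second, and Spanish 2 was the highest and Spanish 3 the lowest of their group in both.

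The libraries covered different cytosines of a member window, which the rule does not ask about. The highest and the lowest Creole library shared a median of 5 of the 23 cytosines that either covered, and the Spanish ones 4 of 19. In 75 members the Creole extremes shared no cytosine, as did the Spanish extremes in 109. At least 3 shared cytosines were found in 252 members for Creole and in 200 for Spanish. Over those cytosines the difference of the same 2 libraries was still 50 or more points in 122 Creole (48.4%) and 111 Spanish cases (55.5%). It was under 10 points in 49 and 52 cases, and 10 or more points in the opposite direction in 8 and 9. The median difference was 47.8 points within Creole, against 62.1 points over all cytosines of the same members, and 54.3 against 63.8 within Spanish.

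**Figure D3:**
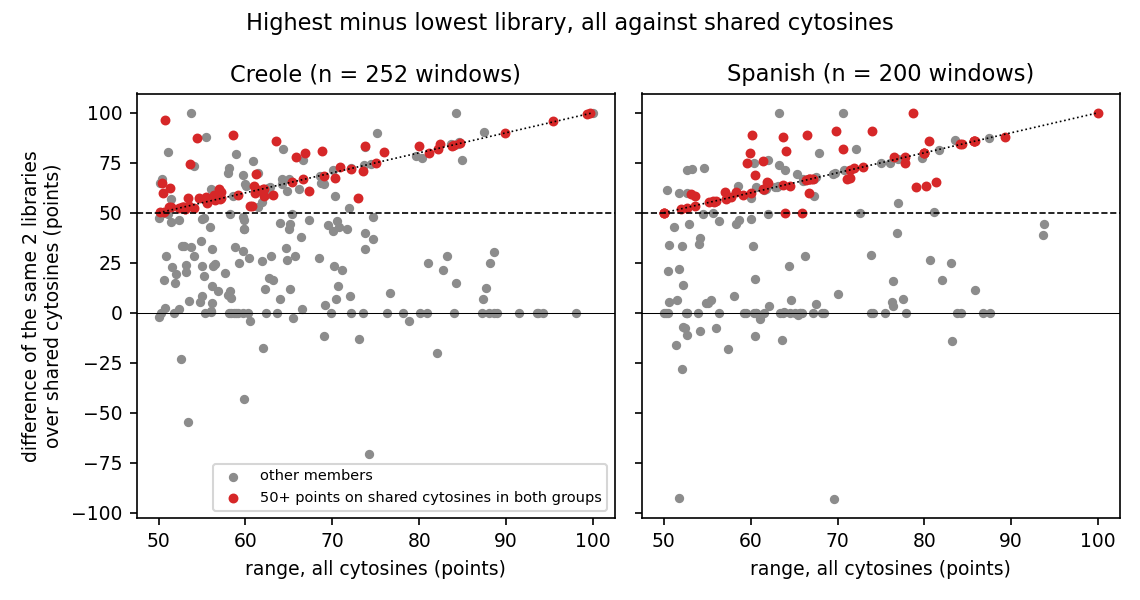
For each member with 3 or more cytosines covered by both the highest and the lowest library of a group, the difference of these libraries over all their cytosines (horizontal axis, percentage points) and over the shared cytosines alone (vertical axis, percentage points), with 252 Creole windows on the left and 200 Spanish windows on the right. The dotted line marks equal values and the dashed line 50 points. Red points are the 67 members at 50 or more points in both groups, and the row of points at 0 shows windows whose shared cytosines did not differ.

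Both groups could be compared on shared cytosines in 151 members (43.6%), and in 67 of these the range was 50 or more points in both groups. That is 19.4% of all 346 members and 44.4% of those comparable. In the other 195 members 1 or both groups had fewer than 3 shared cytosines, and 84 were comparable but not that wide. Under 10 points were found in both groups in 8 members and in at least 1 group in 46. Fewer windows were wide on both sides where only cytosines with 10 or more calls in both libraries counted: 43 of 346 members (12.4%), which is 70.5% of the 61 then comparable. With the 1 shared cytosine of largest difference left out of each comparison, 39 members (11.3%) kept 50 points in both groups, 25.8% of those comparable. Without Creole 1 and Spanish 1 together, 5 of 51 members (9.80%) did, of 21 comparable.

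The 67 windows were shorter on cytosines than the rest, with a median of 19 cytosines covered in any library against 40 in the other members. All 6 libraries measured 20 of them, and 96 of the other members. Of the cytosines shared by the Creole extremes in these windows, 331 of 537 (61.6%) were 50 or more points apart, and 343 of 509 (67.4%) for Spanish. A further 24.4% and 24.2% lay within 5 points, so part of the cytosines of these windows did not differ. Every shared cytosine was 50 or more points apart in 6 windows for Creole and in 4 for Spanish. Fewer than 50% of them were in 12 and 9 windows, and none in 2 and 1. In those last windows every shared cytosine lay within 5 points, and the sums differed because the libraries had different numbers of calls on low and high cytosines. In 2 other windows for each group, at least as many shared cytosines were 50 or more points apart in the opposite direction as in the direction of the sums. The shallower of the compared libraries had a median of 21.8 calls for each shared cytosine within Creole and 16 within Spanish, and under 10 calls in 8 and 14 of the 67 windows.

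Both strands of the DNA could rarely be compared. In the 67 windows, the plus and the minus strand each had at least 2 shared cytosines in 7 windows for Creole and in 5 for Spanish, and the strands differed in the same direction in 2 and 4 of these. Both strands were 50 or more points apart in 0 of the 7 Creole and 3 of the 5 Spanish windows. The window on chromosome 2 at 30714001 to 30715000, chosen after its values were seen, was such a case for Spanish. Creole 1 read 18.0% (300 calls), Creole 2 0 of 156 calls, which allows up to 20% at 15 calls on the deepest cytosine, and Creole 3 89.9% (487 calls). Spanish 2 read 84.1% (503 calls) and Spanish 3 0 of 720 calls, which allows up to 6.25%, with Spanish 1 unmeasured. Creole 3 and Creole 2 differed by 89.9 points over 10 shared cytosines. Spanish 2 and Spanish 3 differed by 84.4 points over 20 shared cytosines, with 81.2 points on the plus strand and 87.1 on the minus strand.

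The window on chromosome 5 at 57977001 to 57978000 showed the opposite case. It read 70.1% in Creole 1 (77 calls), 0 in Creole 3 (285 calls), 90.9% in Spanish 1 (110 calls) and 6.67% in Spanish 2 (75 calls). Creole 1 and Creole 3 shared no cytosine. Spanish 1 and Spanish 2 shared 5, all fully methylated in both, and Spanish 2 had a single call on each of them. In Spanish 1, 18 calls were methylated at each of these 5 cytosines, and in Creole 3, 57 calls were unmethylated at each.

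**Figure D4:**
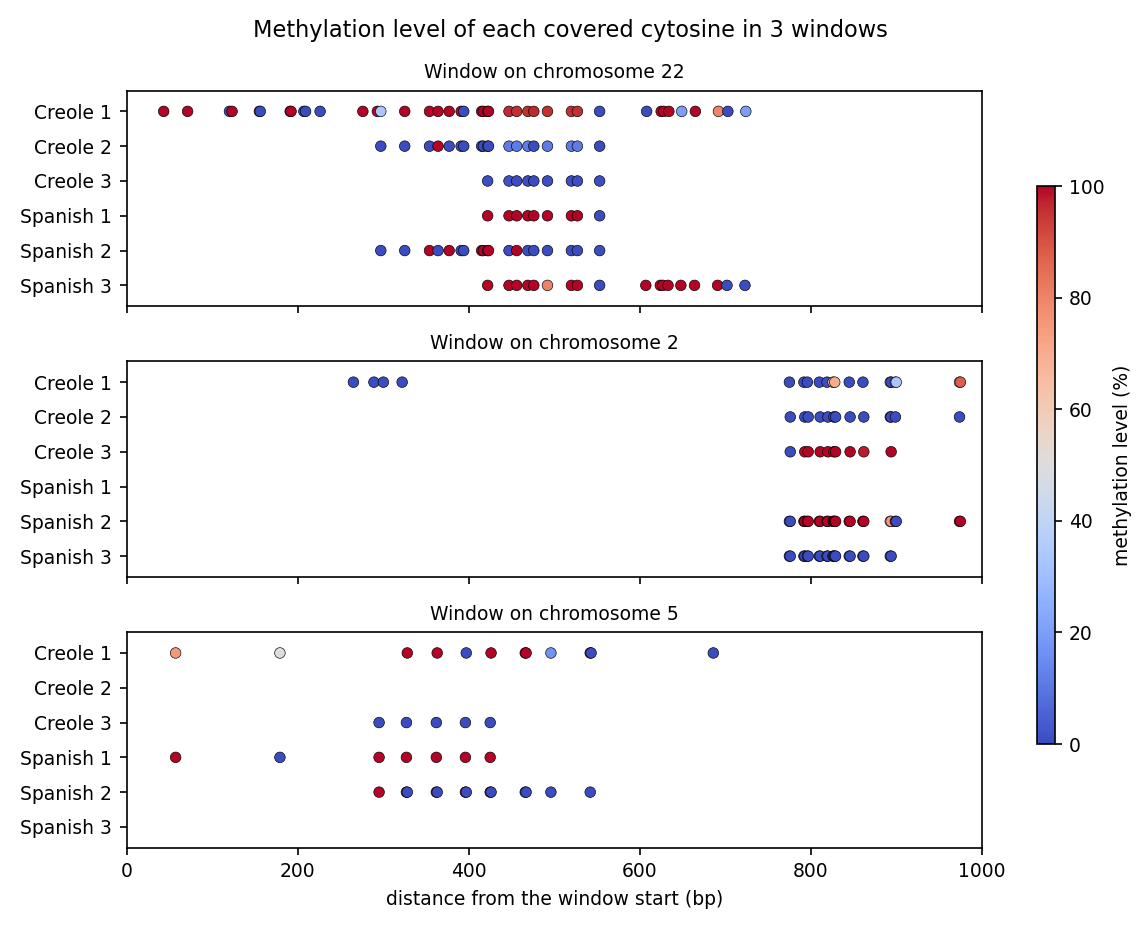
Each covered cytosine of 3 member windows by distance from the window's start (horizontal axis, bp) in each library (rows), coloured by methylation level in percent. In the window on chromosome 22 the same cytosines are high in Creole 1, Spanish 1 and Spanish 3 and low in Creole 3; in the window on chromosome 2, Creole 3 and Spanish 2 are high and Creole 2 and Spanish 3 low at the same cytosines; in the window on chromosome 5, Creole 1 and Creole 3 cover no cytosine in common.

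The widest members were mixed in this respect. Of the 8 members with the largest smaller range among those measured in all 6 libraries, those on chromosome 22 at 59651001 and chromosome 3 at 121263001 kept 50 points on shared cytosines in both groups. The other 6 did not. On chromosome 18, the window at 57239001 read 75% in Creole 2 and 0 of 281 calls in Creole 3, and 86.5% in Spanish 2 and 0 of 148 calls in Spanish 3, with no cytosine shared in either pair. On chromosome 19, the window at 54653001 read 100% in Creole 2 and 0 of 76 calls in Creole 3 with no shared cytosine. There, Spanish 3 and Spanish 2 read 78.6% and 1.02% over all their cytosines and differed by 7.14 points over 14 shared ones. On chromosome 20, the window at 2060001 differed by 100 points over 4 shared cytosines between Creole 2 and Creole 3, while Spanish 2 (91.7%) and Spanish 3 (16.7%) shared none. The remaining 3, on chromosome 9 at 89552001, chromosome 18 at 53232001 and chromosome 29 at 22734001, had smaller ranges of 76.8, 82.7 and 82.1 points over all cytosines.

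The members with the most calls did not all keep their ranges on shared cytosines. The deepest, on chromosome 3 at 13939001, held 36497 calls, of which 35685 were in Creole 1 (76.2%), against 63 calls in Spanish 1 (3.17%). Its Creole range held on 10 shared cytosines, at 64.2 points, while its Spanish extremes shared 1 cytosine. The member on chromosome 18 at 48769001 held 25617 calls and read 21.7%, 72.0% and 80% in Creole 1, 2 and 3, and 79.9%, 25.9% and 2.03% in Spanish 1, 2 and 3. On shared cytosines its ranges were 7.19 points within Creole and 0.0 points within Spanish. The member on chromosome 7 at 89223001 (17496 calls) likewise had 2.25 and 0.376 points on 8 shared cytosines each. The other deep members, on chromosome 8 at 74601001 and chromosome 29 at 30264001, had 55.4 and 65.0 points on shared cytosines within Creole and too few shared cytosines within Spanish.

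Single cytosines in the members were mostly all or none. Of cytosines with at least 20 calls, 95.3% and 97.1% for Creole 2 and 3 read at most 5% or at least 95%, and 89.3%, 86.4% and 94.6% for Spanish 1, 2 and 3. In Creole 1 the share was 64.0%. Over all measured windows the shares were 69.8% in Creole 1 and 91.2% to 94.5% in the others, so the members differed little from the rest in this. Members that a library read between 20% and 80% as a whole were also made mostly of such cytosines, with 56.7% in Creole 1 and 79.9% to 93.6% in the others. In 5 libraries the cytosines of members with a middle level were thus mostly low or high. These shares pool cytosines over windows and do not give how often both kinds lay in 1 window. Creole 1 held the larger share of cytosines that themselves read in between.

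**Figure D5:**
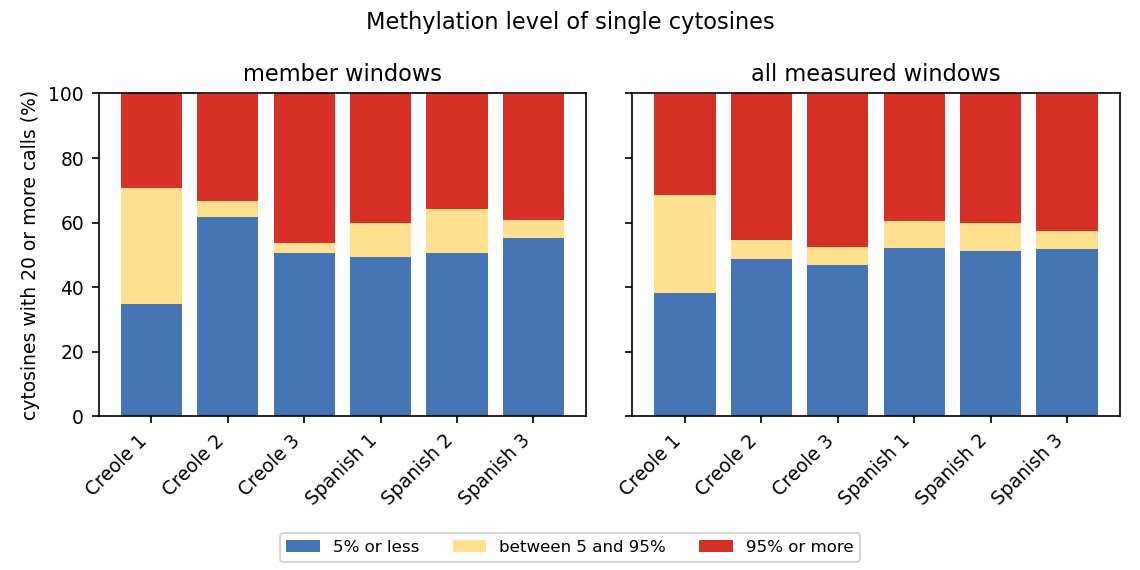
The share of cytosines with 20 or more calls (vertical axis, percent) that read at most 5% (blue), between 5% and 95% (yellow) or at least 95% (red) in each library, in the member windows on the left and in all measured windows on the right. The yellow part is largest in Creole 1, with 36.0% in the members and 30.2% over all windows.

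Within 1 library, the 2 strands of the same CpG often disagreed in the members. With at least 10 calls on each strand, and without cytosines that library preparation could have filled in, 23.9% of 796 CpGs in Creole 1 were 50 or more points apart between strands. Creole 2 and 3 had such a split in 15.5% of 110 and 55.0% of 20 CpGs, and Spanish 1, 2 and 3 in 34.3% of 102, 21.0% of 480 and 16.7% of 126. Over all measured windows it was 12.2% to 20.3%, and over windows with a mean level between 20% and 80% it was 22.9% to 31.2%. The members thus lay within or under the range of other windows of middle level, except in Creole 3, with 20 CpGs, and Spanish 1. Strand partners at the ends of covered stretches differed more. Over the libraries, the cytosine that could have been filled in read 6.90% to 15.4% on average and its partner 65.8% to 69.2%. Such cytosines held 3.09% to 7.83% of the calls in members, and without them 381 windows met the rule, 272 of them among the 346.

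Most neighbouring windows were not as wide. Neighbouring windows measured in both extreme Creole libraries numbered 127, with a median difference of 0.635 points between these libraries. Of them, 13 (10.2%) were 50 or more points apart in the same direction and 3 in the opposite one. Within Spanish, 147 neighbours had a median difference of 1.93 points, with 11 (7.48%) that far apart in the same direction and 8 in the opposite one. Differences within 10 points were found in 47 and 61 neighbours. Over all measured windows, pairs of libraries within a group were 50 or more points apart, in either direction, in 3.01% to 5.99%. The neighbours lay that far apart more often than windows at large, which was not tested. They include windows that are members themselves, since 12 members lay beside another member, and the rule asks a wide range of these. Part of the excess thus comes from the choice of windows, and nothing is read from it. There were 6 places with 2 members side by side, and no longer run.

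The members lay on all 29 autosomes, with 2 to 28 on each. Chromosome 21 had the highest share of its measured windows among the members (1.74%, 25 windows) and chromosome 12 the lowest (0.211%, 2 windows), against 0.873% overall. Chromosome 18 had the most members, 28 (1.31%). The last 5 Mb of covered chromosome held 114 members (32.9%), against 25.3% of all measured windows, so that 1.14% of windows there and 0.783% of the others met the rule. By the number of cytosines covered in any library, the share rose from 0.619% of windows with 1 to 10 cytosines to 1.00% of those with 41 to 80, and was 0.901% above that. Members had a median of 36 such cytosines and 2042 calls in all, and all measured windows 32 and 2025. No test was made of these shares, since range, depth and cytosine number share the same calls.

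The authors' deposited table lists regions as differing between the groups, and 6 members overlapped such a region (1.73%), against 191 of all measured windows (0.482%). The region values here were recomputed from the calls and are set beside the means that the authors' deposited table gives. On chromosome 1, at 73655170 to 73655306, a region in the core of a CpG island listed with the gene entry E1BG26_BOVIN has 93% for Creole and 12% for Spanish in the authors' deposited table. Its calls gave 0 of 299 for Creole 1 and 100% of 1938 for Creole 3, with none in Creole 2, and 5.88% of 17, 5.89% of 832 and 0 of 408 for Spanish 1, 2 and 3. So the Creole libraries lay at both ends of the scale within the region itself. On chromosome 7, at 21145480 to 21145582, a region in an intron of Q17QH2_BOVIN has 95% and 16% in the authors' deposited table. Its calls gave 50.6% of 83 in Creole 1, 100% of 560 in Creole 2 and 0 of 469 in Spanish 3, the only Spanish library with calls there.

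In the other direction, the region on chromosome 5 at 57977296 to 57977426, listed with LOC781279, has 30% for Creole and 62% for Spanish in the authors' deposited table. Its calls gave 66.7% of 27 in Creole 1, 0 of 285 in Creole 3, 100% of 90 in Spanish 1 and 13.2% of 38 in Spanish 2. The region on chromosome 10 at 13484587 to 13484645, listed with E1BH37_BOVIN, has 39% and 79% in the authors' deposited table, and its calls gave 34.6% of 130 in Creole 1, 2.34% of 214 in Creole 2, 80% of 590 in Creole 3 and 93.2% of 292 in Spanish 2. The member around it read 10.1% in Creole 2 and 69.9% in Creole 3, and on the 6 cytosines these shared it differed by -43.0 points, the opposite way. A region without a gene on chromosome 9, at 100726983 to 100727040, has 41% and 86% in the authors' deposited table. It held 31.0%, 96.2% and 60.2% in Creole 1, 2 and 3, 100% in Spanish 2 and 88.7% in Spanish 3. On chromosome 21, at 35022288 to 35022349, a region listed with E1BAV3_BOVIN has 67% and 16% in the authors' deposited table, and 1 library of each group had calls in it, Creole 1 with 82.4% of 199 and Spanish 2 with 5.54% of 271. In the 5 regions with calls in more than 1 Creole library, these libraries spanned 49.4 to 100 points within the region, as the choice of members makes likely. In the 3 regions with calls in more than 1 Spanish library, these spanned 5.89, 11.3 and 86.8 points.

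Listed gene ranges of that table held 6 members (1.73%, against 1.91% of all measured windows), and its CpG island ranges held 2 (0.578% against 0.663%). One of the 6 lay in the range of DLC1 on chromosome 27 at 22828001 to 22829000. It read 68.2%, 100% and 46.5% in Creole 1, 2 and 3, and 33.3%, 73.7% and 100% in Spanish 1, 2 and 3, on 50 to 414 calls. Its ranges on 3 shared cytosines were 53.5 and 66.7 points. DLC1 was named after its values were seen. No member lay within 5000 bp of a region listed with an imprinted, HOX, germline, DNA methylation, antigen presentation or blood cell lineage gene of the lists used. That covers genes of the authors' deposited table alone, since an annotation of the build was not used here.

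In the tests made here of Creole against Spanish, none of the members was called. The authors' deposited table of regions, which 6 members overlapped, is a separate comparison. By edgeR's quasi-likelihood F test with Benjamini-Hochberg adjustment, 0 of 39647 windows were called (0%), and 1285 (3.24%) had an unadjusted p under 0.05. Among the members, 0 had an unadjusted p under 0.05, the smallest being 0.112, in the window on chromosome 15 at 82033001, with an adjusted p of 1 in edgeR. By edgeR's likelihood ratio test, 729 windows (1.84%) were called, of which 0 were members, and by limma 0. The rule asks for a wide spread within both groups and so works against a call, and nothing is read from these counts about the members. The difference of the group means, Creole minus Spanish, had a median of 0.563 points in the members (quartiles -9.82 and 12), with means over the members of 46.7% for Creole and 45.6% for Spanish. It ran from -42.5 to 53.6 points, with 180 members higher in Creole and 166 higher in Spanish, and lay within 25 points in 310. The median absolute difference was 10.7 points, against 6.13 over all measured windows. The ranges of the groups overlapped in every member, which the rule fixes, since ranges that wide cannot lie apart on a percent scale. Over all measured windows, which the rule does not bind, they did not overlap in 22.9%, and the members are not compared with that share.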

How the data were processed

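Per the labels, blood DNA of 6 cattle was cut with MspI, its ends were filled in, and the size-selected fragments were converted with bisulfite and amplified. The submitters' processing notes name Trim Galore, Bismark, methylKit and the build UMD3.1, and give neither settings nor duplicate handling. The deposited coverage files hold, for each cytosine, the count of methylated and of unmethylated calls, not normalized, and a percent that the authors took from those counts and that was not used further. The authors' table of regions gives group means as a fraction, printed here as percent, and their difference, per the file headers.

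Calls were summed over windows of 1000 bp for the rule given at the start. Strands were told apart by neighbouring covered positions (54.3% of positions had such a partner). A shared cytosine is one with calls in both the highest and the lowest library of a group, and 3 were needed. Group differences were tested with edgeR 4.0.16 in R 4.3.3 (both kinds of count, 1 effect for each library, no trend in the dispersion, an unmeasured library set to 0 calls so that it drops out of that window, adjusted over all 39647 windows, threshold 0.05), and with limma 3.58.1 on log2 ratios with 2 added. The edgeR step was also run on simulated counts, whose spread between libraries was set in advance and not taken from these data. Nothing is read from that run about the number of windows called here. The rest used Python 3.11.15, numpy 2.4.6, pandas 2.3.3, scipy 1.17.1, statsmodels 0.14.6 and matplotlib 3.10.9.

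The member windows and gene lists were chosen with earlier results of these data known. Windows named are the 8 members of largest smaller range measured in all 6 libraries, those overlapping a listed region, the 4 nearest the threshold on each side, the 5 with most calls, the 3 longest runs of neighbours (all 6 runs held 2 windows, and the 3 with the most calls were taken), and members near a region of a listed gene. Others are marked as chosen after their values were seen. The numbers of the animals come from accession order and tie none across groups. Lane marks are those of the file names, as 1 mark for each group. Alternatives changed the call, cytosine and range minimums, grid, window size, strand merging, coverage cap, depth and cytosines used, and left out each library. Leaving out Creole 1 and Spanish 1 together, demanding 10 calls for a cytosine and taking each strand alone were added after the data were seen. Window sequences were not used here.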

Additional observations from a re-analysis of the deposited data

Results flagged for a closer look

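On the X chromosome, which the rule for the members leaves out, 16 of 666 measured windows (2.40%) varied by 50 or more points within both groups, where 0.873% did on the autosomes. It is listed here as a signal in data that the comparisons did not use. A range of 50 points was met within Creole in 57 X windows (8.56%) and within Spanish in 85 (12.8%). In 12 of the 16, Creole 1 and Spanish 1 were the highest of their groups, as they were in 49 of the 276 autosomal members that both measured (17.8%). The window at 13830001 to 13831000 read 63.7% in Creole 1 and 70% in Spanish 1, and 0 for Creole 2 and 3 and for Spanish 2. In the window at 135419001 to 135420000, Creole 1, 2 and 3 read 57.0%, 0.0620% and 0, and Spanish 1 and 2 read 91.8% and 10.2%. Both windows were chosen after their values were seen. The 4 other windows had another order, such as 127720001 to 127721000 with 6.77% and 93.8% for Creole 1 and 2, and 42.4% and 94.0% for Spanish 1 and 2. Without Creole 1 and Spanish 1, 0 of 156 X windows were wide in both groups, beside 51 of 10341 autosomal windows (0.493%). With so few X windows, a count of 0 cannot be told apart from that share, and nothing is read from it. All 6 animals are labelled as males, and no value here shows why these libraries differ on the X chromosome.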

How the results depend on the processing

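The count of 346 members moved with the minimums: it was 554 with 20 calls needed, 195 with 100 calls, 776 with a range of 40 points and 148 with 60. It was 66 with only cytosines covered in every measured library (34 of the 51 members still measured kept the rule) and 223 with cytosines weighted equally (148 of the 346 among them). It ran from 115 (without Creole 1) to 187 (without Creole 3) when each library was left out in turn, and was 51 without Creole 1 and Spanish 1. Fewer libraries can only narrow a range. Under the other 10 alternatives it was 240 to 452. Beside it, the share of Creole-wide windows that were also Spanish-wide was 8.59% to 19.4%, against 2.35% to 5.19% of other windows, over the alternatives at 50 points. The share wide on shared cytosines, 19.4%, was 15.3% with 5 shared cytosines needed, 11.3% without the cytosine of largest difference, 12.4% with 10 calls needed, 2.31% on the plus and 4.34% on the minus strand alone, 9.80% without Creole 1 and Spanish 1, and 15.8% to 20.6% without each library in turn. These are shares of all members, and fewer members could then be compared: 53 of 104 (51.0%) were wide with 5 shared cytosines, 8 of 32 (25%) on the plus strand, 15 of 42 (35.7%) on the minus strand and 43 of 61 (70.5%) with 10 calls, against 44.4% of 151. Windows called between the groups stayed at 0 except in edgeR's likelihood ratio test (729). Of 398 values of the 28 named windows under the alternatives, 63 moved by more than the spread between libraries and 107 fell under 50 points, with equal weights in 19 of 28 windows. No paired analysis was possible because the numbers of the animals come from accession order and tie no animals together. Equal weights were not run for the group test, which needs counts. Depth limits single values: with the deepest cytosine's calls as reads, their 95% Wilson intervals were up to 69.9 points wide.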
